A study of Mus musculus with 6 samples.

Results

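The proneural basic helix-loop-helix (bHLH) genes Neurog1, Neurog2, Neurog3, Atoh1, Ptf1a, Neurod1 and Neurod4 were examined for chromatin accessibility in mouse neural progenitors that overexpressed Nr6a1. Intervals of the deposited consensus set were taken for a gene when their midpoint lay inside its body, or when the nearest end of any protein-coding gene was an end of that gene, within 300 kb. This gave 32 of 52223 intervals for the 7 genes. The farthest lay 118.3 kb from Atoh1, and 0 intervals nearest to these genes lay beyond the limit.

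The progenitors were differentiated from mouse embryonic stem cells and profiled by ATAC-seq, in which the Tn5 transposase inserts sequencing adapters into open chromatin. Cells of the Nr6a1OE group (3 libraries) carried a lentivirus encoding Nr6a1 joined to the fluorescent protein mScarlet3 by a 2A peptide, and those of the mScarlet group (3 libraries) carried a lentivirus encoding mScarlet3 alone. Virus was added on day 5, fluorescent cells were sorted on day 9, and 50000 cells went into each library. The differentiation was the same in both groups: CHIR99021 (5 µM), which inhibits GSK3 and so activates Wnt signalling, on day 2, retinoic acid (100 nM) together with Smoothened agonist (SAG, 10 nM) from day 3, and SAG at 10 nM without retinoic acid from day 5. Neither the promoter driving the viral genes nor the stem cell line is named in the labels. Whether replicate libraries stem from separate cultures is not stated, and p-values therefore reflect the spread among these 6 libraries alone, which may be technical.

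Proneural bHLH proteins bind DNA at E-boxes (CANNTG) as dimers with E proteins such as Tcf3, Tcf4 and Tcf12. They drive progenitors out of the cell cycle and into neuronal differentiation, and they turn on Notch ligands such as Dll1, through which the differentiating cell holds its neighbours in the progenitor state. Hes proteins repress proneural genes, and Id proteins take up the E proteins. In the spinal cord Neurog1, Neurog2, Atoh1 and Ptf1a act in progenitors of particular dorsoventral domains, and Neurod1 and Neurod4 act later in the same cascade. Nr6a1 (germ cell nuclear factor) belongs to the orphan nuclear receptors and acts as a repressor.

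Promoter sequences are shown for Ptf1a, for Neurog2, whose start site was the most accessible of the set, and for Neurog3 and Neurod1, the genes whose window held an E-box. Ptf1a had the interval nearest to the threshold, but that interval lies 14.4 kb upstream, outside the window shown. Each sequence is the 250 bases before the annotated start in RefSeq (GRCm38.p6, the coordinates of mm10), written 5′ to 3′ on the strand of the gene. For Neurog2 that start lies inside the outer bounds of the gene given below. Capitals mark the motifs searched. These were the E-box CANNTG, which reads the same class of sequence on both strands, and CCAAT, searched on both strands, so that it appears in some windows in its reversed form. TATAA was searched on the strand of the gene. The CCAAT and TATAA searches were added after the sequences had been seen, and no motif overlapped another in these windows.
Ptf1a, chr2:19445413-19445662, plus strand: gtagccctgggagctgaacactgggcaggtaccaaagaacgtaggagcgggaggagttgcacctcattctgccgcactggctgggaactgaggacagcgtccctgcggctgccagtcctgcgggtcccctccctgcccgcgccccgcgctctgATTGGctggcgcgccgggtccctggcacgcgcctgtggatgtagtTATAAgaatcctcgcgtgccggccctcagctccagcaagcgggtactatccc
Neurog2, chr3:127632886-127633135, plus strand: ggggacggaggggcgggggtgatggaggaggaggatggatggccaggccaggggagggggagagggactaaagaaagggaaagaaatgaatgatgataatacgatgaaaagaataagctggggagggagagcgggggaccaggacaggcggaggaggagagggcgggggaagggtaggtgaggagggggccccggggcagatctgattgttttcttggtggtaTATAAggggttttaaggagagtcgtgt
Neurog3, chr10:62132840-62133089, plus strand: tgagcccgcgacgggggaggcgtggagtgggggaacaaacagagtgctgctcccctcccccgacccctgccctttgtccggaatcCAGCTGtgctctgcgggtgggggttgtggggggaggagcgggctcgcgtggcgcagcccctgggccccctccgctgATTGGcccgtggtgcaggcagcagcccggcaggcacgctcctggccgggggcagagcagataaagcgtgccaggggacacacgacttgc
Neurod1, chr2:79456637-79456886, minus strand: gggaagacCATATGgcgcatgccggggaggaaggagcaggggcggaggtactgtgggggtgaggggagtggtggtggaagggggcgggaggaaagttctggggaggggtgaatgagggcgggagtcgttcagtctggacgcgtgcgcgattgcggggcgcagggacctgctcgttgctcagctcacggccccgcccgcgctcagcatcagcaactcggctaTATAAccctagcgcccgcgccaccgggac

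Each window printed here lay wholly inside an accessible interval of its gene. All 7 genes matched RefSeq promoters, with 8 windows in all, since Neurod4 has 2 annotated starts. An E-box was present in 2 of the 8 windows, CAGCTG in Neurog3 and CATATG in Neurod1, whereas 66.2% of 32841 promoter windows of the same length held one. CCAAT on either strand occurred at 4 of the 7 genes (Neurog1, Neurog3, Atoh1 and Ptf1a), against 33.9% of all windows. TATAA on the strand of the gene occurred at 3 of the 7 (Neurog2, Neurod1 and Ptf1a), against 16.0% of all windows. The extended nuclear receptor site TCAAGGTCA, the kind of sequence that Nr6a1 binds, was found on neither strand of these 8 windows and in 0.387% of all windows. None of these searches reached the distal intervals, whose sequence was not analysed here. The GC content of the 8 windows ran from 51.2% (Neurod4) to 71.2% (Neurog1 and Neurog3), against a median of 52.4% over all windows. The motif shares were not matched for GC content, on which the rate of such motifs can depend.

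Libraries held 6857763 to 8030029 fragments in intervals. Across the genome, Nr6a1OE gained accessibility at 242 and lost it at 652 of 51637 tested intervals (edgeR quasi-likelihood test, Benjamini-Hochberg adjusted p under 0.05), while DESeq2 called 3 higher and 97 lower. At the Nr6a1 gene itself 1 of 8 intervals rose, to 64.6 ± 2.66 CPM in Nr6a1OE, against 52.4 ± 3.79 CPM in mScarlet (SD, n = 3 each; log2 fold change 0.30, edgeR adjusted p = 0.00012). CPM here are fragment counts scaled to the size of each library. Gene-end intervals of 8 neural progenitor markers, Sox2, Nes and Pax6 among them, were all present and summed to 736 to 763 CPM in Nr6a1OE and 729 to 754 CPM in mScarlet. Among 5 pluripotency markers, Pou5f1, Zfp42 and Dppa5a had no interval within 1 kb of an end, while the other 2, Nanog and Esrrb, had one. All 7 markers of post-mitotic neurons had one, with sums of 316 to 335 CPM in Nr6a1OE and 323 to 337 CPM in mScarlet, and their part in the results below was not tested. Summed gene-end markers of ventral progenitors, mesoderm, endoderm, neural crest, and endothelium and blood also overlapped between the groups. Such intervals were present at 5 of 5 endoderm, 4 of 5 mesoderm, 4 of 4 neural crest and 3 of 4 endothelium and blood markers. Per gene they averaged 48.0 CPM for endoderm, against 46.7 CPM for post-mitotic neurons and 92.9 CPM for neural progenitors. An accessible gene end thus does not by itself identify the cell type.

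Other intervals of the marker genes did change. Of 274 tested intervals assigned to the 41 markers by the rule used for the proneural genes, 2 rose and 8 fell, or 3.65%, against 1.73% of all tested intervals. An interval inside Nes, the gene of the progenitor filament nestin, fell to 37.5, 37.6 and 42.4 CPM in Nr6a1OE, against 57.6, 54.9 and 49.0 CPM in mScarlet (log2 fold change -0.45, edgeR adjusted p = 9.35e-09, DESeq2 0.00167). An interval 135.0 kb from Nkx6-1, a homeobox gene of ventral progenitors, fell to 28.0, 28.4 and 32.2 CPM in Nr6a1OE, against 38.5, 38.3 and 44.1 CPM in mScarlet (log2 fold change -0.45, edgeR adjusted p = 2.06e-06, DESeq2 0.0203). Both calls held without each library in turn, and they were the 2 that DESeq2 made. The other 8 were made by edgeR alone and were each lost on leaving out any of 3 to 6 libraries. They were lower in Nr6a1OE near Sox2 (-0.72), Nkx2-2 (-0.28), Elavl4 (-0.37), Foxa1 (-0.75), Foxa2 (-0.95) and Kdr (-0.57), and higher near Pax6 (1.12) and Ets1 (0.41), all in log2. The part of these marker changes in the results below was not tested.

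No interval of the 7 genes changed in accessibility past the threshold. Of the 32 intervals, all of which passed the filter on low counts, 0 rose and 0 fell, where 0.469% of all tested intervals rose and 1.26% fell, 1.73% in either direction. DESeq2 also called 0. The log2 fold changes of Nr6a1OE over mScarlet ran from -0.49 to 0.85, with 16 above 0 and 16 below, and their median was -0.01, against 0.00 over all tested intervals. The median size of the change, sign left aside, was 0.13 at these intervals and 0.12 over all. Before adjustment, 5 intervals were higher and 3 were lower at p under 0.05 in edgeR, together 25.0% of the 32. Of all tested intervals 5.73% were higher and 6.87% lower by that measure, together 12.6%. DESeq2 counted 3 of the 32 before adjustment. The groups did not overlap at 8 intervals, 4 higher and 4 lower in Nr6a1OE, while 7.89% of all tested intervals were so placed higher and 8.73% lower, together 16.6%. These are bulk libraries, in which fewer cells with an open site and a site less often open per cell cannot be told apart.

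**Figure D1:**
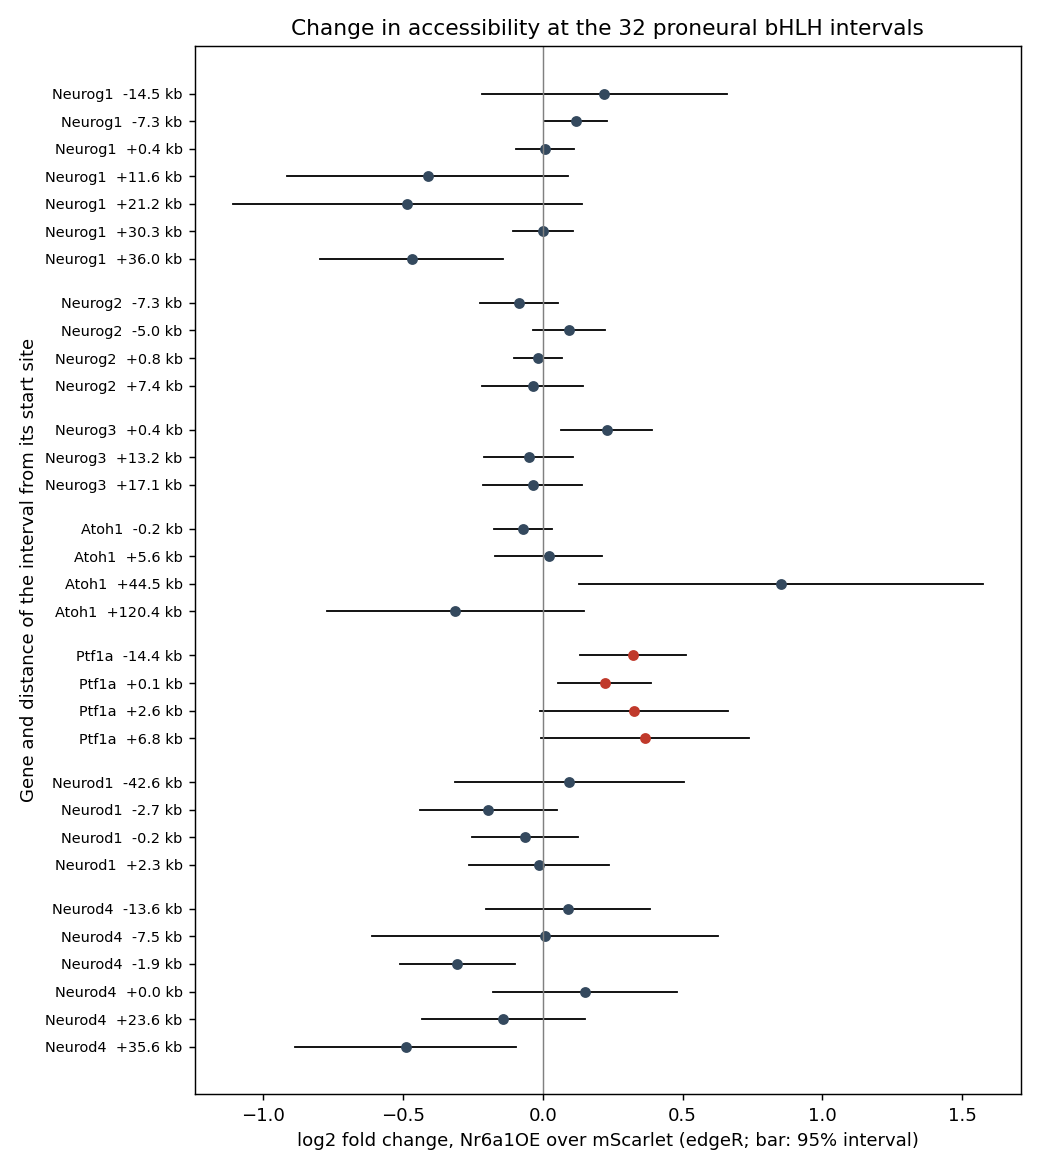
Log2 fold change of Nr6a1OE over mScarlet (horizontal axis) at each of the 32 intervals, ordered by gene and by distance from the start site (vertical axis). Points are edgeR estimates, bars are 95% intervals, and the points of Ptf1a are red: its 4 estimates lie between 0.22 and 0.37, while each of the other 6 genes has points on both sides of 0. The share of genes at large with all estimates on the same side is not given here.

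Levels at the gene ends differed between the genes. Per kb of interval, the mean over the 6 libraries was 37.4 CPM at Neurog2, 34.0 at Neurog1, 29.5 at Atoh1, 27.2 at Neurod1, 14.4 at Ptf1a, 13.8 at Neurog3 and 13.3 at Neurod4, against a median of 7.81 CPM per kb over all tested intervals. The libraries of Neurog2 (36.8 to 38.2 CPM per kb) did not overlap those of Neurog1 (30.5 to 36.1). Neurog1 overlapped Atoh1 (27.5 to 33.2), and Atoh1 overlapped Neurod1 (25.7 to 30.7). A gap then separated Neurod1 from Ptf1a (11.7 to 16.8), and Ptf1a, Neurog3 (11.2 to 16.2) and Neurod4 (10.8 to 16.0) overlapped one another. The levels at the gene ends thus fell at percentiles 88.5 (Neurog2) to 66.3 (Neurod4) of all tested intervals. All tested intervals include sites far from any gene end, and no ranking among gene-end intervals alone was made. Levels per kb depend on how wide each consensus interval was drawn, and these ran from 513 bp at Neurod4 to 2921 bp at Neurog2.

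**Figure D2:**
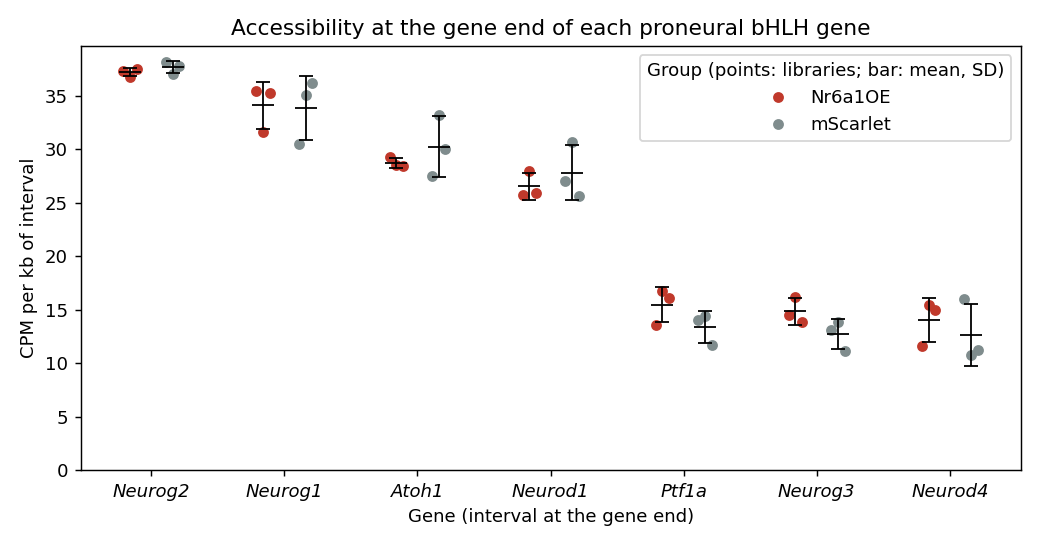
CPM per kb (vertical axis) of the interval at the gene end of each gene (horizontal axis), for the 3 libraries of each group, with mean and SD. Neurog2, Neurog1, Atoh1 and Neurod1 lie above 25 CPM per kb in every library, and Ptf1a, Neurog3 and Neurod4 lie below 17.

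Each gene-end level was compared over the 6 libraries with those of 54 other genes. These were the rest of the set and the fixed lists of partners, inhibitors, targets and other neurogenic bHLH genes. The level most like that of Neurog2 was that of Gadd45g (root-mean-square difference 0.04 in log2 CPM per kb), then Ebf3 (0.05). Closest to Neurog1 were Id1 (0.12) and Ebf1 (0.13), and closest to Atoh1 were Sox4 (0.07) and Bhlhe22 (0.11). Bhlhe22 and Sox4 were closest to Neurod1 (0.13 each). Neurog3 and Ptf1a were each other's closest gene (0.11), followed by Heyl for Neurog3 (0.14) and for Ptf1a (0.16). Ptf1a (0.22) and Neurog3 (0.24) were closest to Neurod4. This likeness covers level as well as pattern and is a description over libraries that share their depth and preparation.

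The number of intervals was 7 at Neurog1, 6 at Neurod4, 4 each at Neurog2, Neurod1, Atoh1 and Ptf1a, and 3 at Neurog3, against a median of 1 and an upper quartile of 3 over 21883 protein-coding genes counted by the same rule. By midpoint, 26 of the 32 lay outside every protein-coding gene and 6 inside the gene they belong to. The interval at the gene end held 72.9% of the summed accessibility of Atoh1 in Nr6a1OE and 74.1% in mScarlet, 50.0% in Nr6a1OE and 50.3% in mScarlet at Neurog2, but 15.3% in Nr6a1OE and 12.5% in mScarlet at Neurod4.

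**Figure D3:**
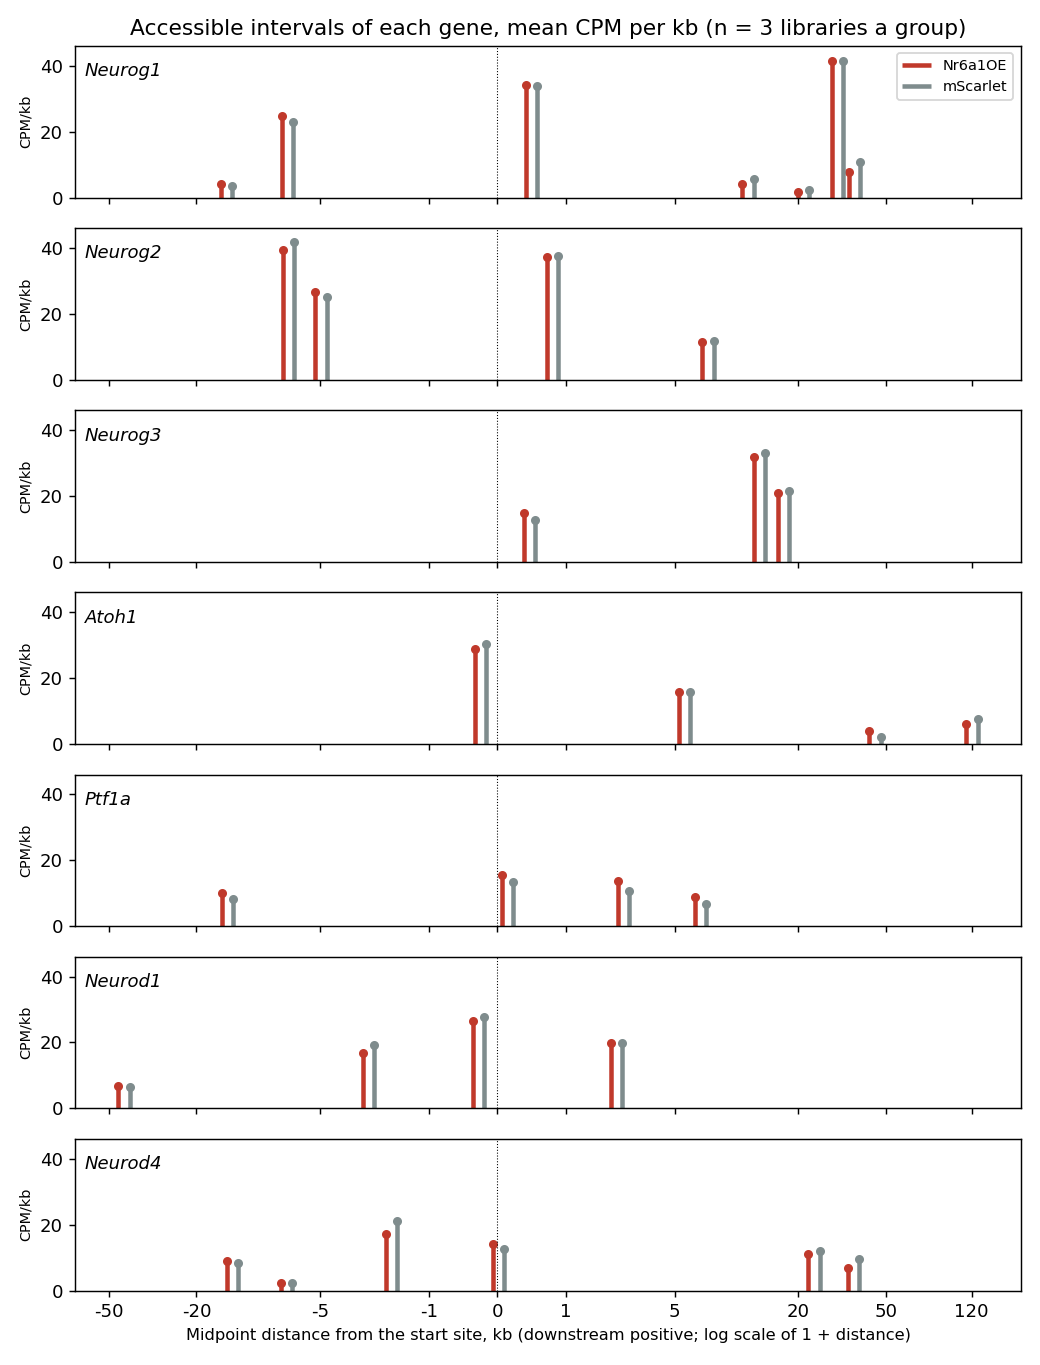
Mean CPM per kb (vertical axes) of each interval against the distance of its midpoint from the start site (horizontal axis, kb, log scale of 1 + distance, downstream positive), for Nr6a1OE in red and mScarlet in grey, drawn side by side at 1 distance (n = 3 libraries each). The highest interval of Neurog1 lies 30.3 kb downstream and that of Neurog3 13.2 kb downstream. In height the pair of lines differs most at Neurod4 1.9 kb upstream (17.0 CPM per kb in Nr6a1OE, 21.1 in mScarlet). As a ratio it differs most at a weak site of Atoh1 44.5 kb downstream (4.01 CPM per kb in Nr6a1OE, 2.23 in mScarlet).

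Neurog1 and Neurog2, the neurogenins of the central and peripheral nervous system, had the most accessible start sites of the set. The interval over the Neurog2 start site (chromosome 3, 127632429 to 127635349, gene 127632733 to 127635636) had 109, 107 and 110 CPM in Nr6a1OE 1, 2 and 3, against 111, 108 and 110 CPM in mScarlet 1, 2 and 3. The groups overlapped, and the log2 fold change of -0.02 had a 95% interval of -0.10 to 0.07 (SE 0.04, edgeR adjusted p = 0.917). No other 95% interval of the 32 was narrower.

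Upstream of Neurog2, the site 7.3 kb away (127625366 to 127626328) had the highest level per kb of that gene, 39.5 CPM per kb in Nr6a1OE and 41.9 in mScarlet. It held 39.2, 39.7 and 35.1 CPM in Nr6a1OE and 36.1, 45.3 and 39.5 CPM in mScarlet, with a log2 fold change of -0.09 (95% interval -0.23 to 0.06, edgeR adjusted p = 0.68). This site lies nearly as close to Zgrf1 (7.8 kb to its end) as to Neurog2. The site 5.0 kb upstream held 46.6, 46.6 and 49.5 CPM in Nr6a1OE, against 42.4, 46.9 and 44.7 CPM in mScarlet (log2 fold change 0.09, SE 0.07, edgeR adjusted p = 0.6). The fourth, 7.4 kb downstream, held 23.0 ± 2.29 CPM in Nr6a1OE and 23.6 ± 1.96 CPM in mScarlet (SD, n = 3 each). At all 4 sites of Neurog2 the groups overlapped.

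At Neurog1 the interval over the start site (chromosome 13, 56250693 to 56252838, gene 56250478 to 56252180) held 76.0, 67.8 and 75.7 CPM in Nr6a1OE, against 65.4, 75.2 and 77.6 CPM in mScarlet. The log2 fold change was 0.01 (SE 0.05, 95% interval -0.10 to 0.11, edgeR adjusted p = 0.972). The most accessible site of Neurog1 per kb lay 30.3 kb downstream (56221093 to 56222715) and held 63.5, 69.5 and 69.1 CPM in Nr6a1OE, against 65.6, 67.0 and 69.3 CPM in mScarlet. Its estimate was 0.00 in log2 (95% interval -0.11 to 0.11, edgeR adjusted p = 0.991). At this pair of strong sites the libraries of the groups were interleaved.

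Another strong site of Neurog1, 7.3 kb upstream (56258183 to 56260866), held 66.3, 68.2 and 64.9 CPM in Nr6a1OE, against 62.0, 60.0 and 61.3 CPM in mScarlet. Every Nr6a1OE library lay above every mScarlet library, but the log2 fold change of 0.12 (SE 0.06) did not pass (edgeR adjusted p = 0.344). The Neurog1 interval with the smallest p, 36.0 kb downstream (56215836 to 56216589), was weaker, with 5.40, 6.36 and 5.93 CPM in Nr6a1OE, against 8.35, 8.16 and 7.99 CPM in mScarlet. All Nr6a1OE libraries were lower there, and the log2 fold change of -0.47 (SE 0.17) did not pass either (edgeR adjusted p = 0.138). It lies almost as near to Tifab (37.2 kb) as to Neurog1. The other 3 intervals of Neurog1 held a mean of 1.76 to 4.31 CPM in Nr6a1OE and 2.50 to 3.73 CPM in mScarlet, with log2 fold changes from -0.48 to 0.22.

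Neurog3, best known as the determination factor of pancreatic endocrine cells, had the least accessible start site of the neurogenins. That interval (chromosome 10, 62132428 to 62134507, gene 62133090 to 62134763) held 30.1, 33.8 and 28.8 CPM in Nr6a1OE, against 27.2, 28.8 and 23.2 CPM in mScarlet. Nr6a1OE 3 was about level with mScarlet 2, and the log2 fold change of 0.23 (SE 0.08, 95% interval 0.06 to 0.39) did not pass (edgeR adjusted p = 0.156). Without mScarlet 3 it was 0.14 (edgeR adjusted p = 0.627). Per kb the higher levels were at downstream sites. The site 13.2 kb downstream (62145793 to 62146708) averaged 32.5 CPM per kb over the 6 libraries and held 27.7, 31.2 and 28.9 CPM in Nr6a1OE, against 30.5, 28.8 and 31.3 CPM in mScarlet (estimate -0.05 in log2, SE 0.08, edgeR adjusted p = 0.867). The site 17.1 kb downstream held 24.4 ± 1.16 CPM in Nr6a1OE and 25.1 ± 1.36 CPM in mScarlet (SD, n = 3 each).

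Atoh1 specifies the most dorsal interneurons of the spinal cord and cerebellar granule cell precursors. Its promoter interval (chromosome 6, 64727695 to 64730175, gene 64729125 to 64731245) held 72.6, 70.8 and 70.5 CPM in Nr6a1OE, against 68.2, 82.3 and 74.4 CPM in mScarlet. The mScarlet libraries were spread on both sides of the Nr6a1OE ones, and the log2 fold change was -0.07 (SE 0.05, 95% interval -0.17 to 0.03, edgeR adjusted p = 0.629). Atoh1 is known for an autoregulatory enhancer 3′ of its coding sequence, and an interval lay on that side at 64734094 to 64735422. It held 21.0, 23.3 and 19.1 CPM in Nr6a1OE, against 22.7, 22.6 and 17.4 CPM in mScarlet, a difference of 0.02 in log2 (95% interval -0.17 to 0.21, edgeR adjusted p = 0.962). Whether this interval is that enhancer was not tested.

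The largest estimate of the set was at a weak site 44.5 kb downstream of Atoh1 (64773383 to 64773911). It held 2.27, 1.70 and 2.40 CPM in Nr6a1OE, or 16, 12 and 19 fragments, against 1.37, 1.17 and 0.999 CPM in mScarlet, or 10, 8 and 8 fragments. The groups did not overlap, and the log2 fold change of 0.85 had an SE of 0.37 and did not pass (95% interval 0.13 to 1.57, edgeR adjusted p = 0.275). The remaining Atoh1 interval, 120.4 kb downstream, had a log2 fold change of -0.31 (SE 0.23). Chromosome 6, which holds Atoh1, had a median log2 fold change of -0.03 over its 3177 tested intervals.

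Ptf1a, which specifies inhibitory neurons in the dorsal spinal cord and cerebellum and acinar cells in the pancreas, had all 4 of its estimates above 0. How often this holds among genes of as many intervals is not given here. The interval nearest to the threshold lay 14.4 kb upstream of the start site (chromosome 2, 19430145 to 19432461, gene 19445663 to 19447501). It held 24.0, 22.6 and 24.5 CPM in Nr6a1OE, against 18.6, 17.2 and 20.9 CPM in mScarlet. Every Nr6a1OE library lay above every mScarlet library. The log2 fold change was 0.32 (SE 0.10, 95% interval 0.13 to 0.51) and the edgeR adjusted p of 0.0512 did not pass. DESeq2 gave an adjusted p of 0.915 for it. Leaving out mScarlet 3, the highest of the control libraries, gave a log2 fold change of 0.41 that passed (edgeR adjusted p = 0.029), and leaving out any other library raised the edgeR adjusted p to between 0.0644 and 0.243. Mouse Ptf1a is known for an autoregulatory enhancer upstream of the gene, and whether this interval is that enhancer was not tested.

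At the Ptf1a start site (19444813 to 19446725) accessibility was 26.0, 32.1 and 30.8 CPM in Nr6a1OE, against 26.8, 27.5 and 22.4 CPM in mScarlet. Nr6a1OE 1 lay among the mScarlet libraries, and the log2 fold change was 0.22 (SE 0.09, edgeR adjusted p = 0.188). Without mScarlet 3 it was 0.13 (edgeR adjusted p = 0.671). The site 2.6 kb downstream held 7.67, 7.77 and 6.69 CPM in Nr6a1OE, against 6.43, 4.95 and 6.12 CPM in mScarlet, groups that did not overlap (log2 fold change 0.33, SE 0.17, edgeR adjusted p = 0.421). The site 6.8 kb downstream held 6.82, 6.07 and 5.68 CPM in Nr6a1OE, against 4.38, 6.12 and 4.00 CPM in mScarlet, and mScarlet 2 fell inside the Nr6a1OE range (log2 fold change 0.37, SE 0.19, edgeR adjusted p = 0.405).

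Summed over its 4 intervals, Ptf1a had 64.5, 68.5 and 67.6 CPM in Nr6a1OE, against 56.3, 55.8 and 53.3 CPM in mScarlet. The sums of the other 6 genes overlapped between the groups, for instance 217 ± 2.79 CPM in Nr6a1OE and 219 ± 6.33 CPM in mScarlet at Neurog2, and 222 ± 3.07 CPM in Nr6a1OE and 219 ± 7.77 CPM in mScarlet at Neurog1 (SD, n = 3 each). Among 6820 protein-coding genes of at least 3 intervals, summed by the same rule, the groups did not overlap at 20.5%, and Nr6a1OE was the higher at 9.25%, so 1 gene of 7 is near the share at large. The sums were given no test, since the genes were chosen with results of these data known. The 10 tested intervals within 150 kb of Ptf1a that belong to other genes had log2 fold changes from -0.42 to 0.20 with a median of -0.11. Of these 10, 3 were above 0 and 0 passed the threshold. By the same measure the medians around the other 6 genes ran from -0.13 (Neurod1) to 0.07 (Neurog1). There 1 of 9 intervals around Neurog1 and 1 of 4 around Neurod1 passed, where 1.73% of all tested intervals did. Whether the Ptf1a intervals differ from their surroundings was not tested.

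**Figure D4:**
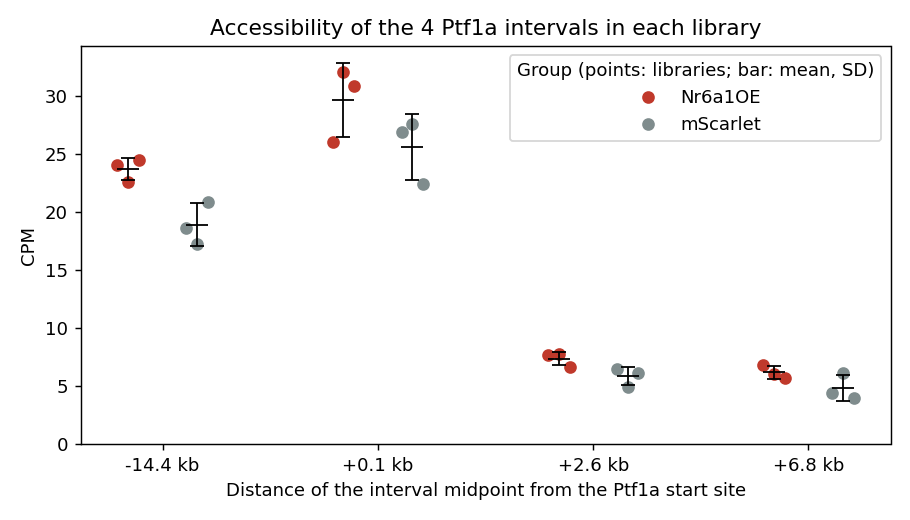
CPM (vertical axis) of the 4 Ptf1a intervals (horizontal axis, distance from the start site) in the 3 libraries of each group, with mean and SD. The groups are apart at the upstream interval and at the one 2.6 kb downstream, and they overlap at the other two.

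Neurod1, a factor of early neuronal differentiation, and Neurod4, a related factor of neuronal differentiation, are downstream members of the cascade. The interval at the Neurod1 start site (chromosome 2, 79456460 to 79457238, gene 79452637 to 79456636) held 20.0, 21.8 and 20.2 CPM in Nr6a1OE, against 21.1, 23.9 and 20.0 CPM in mScarlet. The groups overlapped, with a log2 fold change of -0.06 (SE 0.10, 95% interval -0.25 to 0.13, edgeR adjusted p = 0.858). The Neurod1 site of smallest p, 2.7 kb upstream (79458981 to 79459676), held 13.1, 10.0 and 11.9 CPM in Nr6a1OE, against 14.5, 12.5 and 13.0 CPM in mScarlet (log2 fold change -0.20, SE 0.13, edgeR adjusted p = 0.548). The interval inside the gene held 15.5, 11.4 and 8.96 CPM in Nr6a1OE, against 11.6, 13.3 and 11.1 CPM in mScarlet, the widest spread being in Nr6a1OE. The one 42.6 kb upstream held 4.70 ± 0.955 CPM in Nr6a1OE and 4.41 ± 0.735 CPM in mScarlet (SD, n = 3 each).

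At Neurod4 the strongest site was not at the start but 1.9 kb upstream (chromosome 10, 130281694 to 130282642, gene 130268152 to 130280254). It held 14.8, 16.4 and 17.3 CPM in Nr6a1OE, against 20.5, 18.9 and 20.5 CPM in mScarlet. Every Nr6a1OE library lay below every mScarlet library, and the log2 fold change of -0.31 (SE 0.10, 95% interval -0.51 to -0.10) did not pass (edgeR adjusted p = 0.114). The start site itself (130279983 to 130280495) held 5.97, 7.91 and 7.70 CPM in Nr6a1OE, against 8.21, 5.54 and 5.75 CPM in mScarlet, and the log2 fold change came to 0.15 (SE 0.17, edgeR adjusted p = 0.782).

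Another weak Neurod4 site, 35.6 kb downstream (130244256 to 130244838), held 4.40, 3.81 and 3.91 CPM in Nr6a1OE, against 5.89, 4.81 and 6.24 CPM in mScarlet. All Nr6a1OE libraries were lower, and the log2 fold change of -0.49 (SE 0.20) did not pass (edgeR adjusted p = 0.241). It lies closer to Neurod4 than to the olfactory receptor gene Olfr827 (33.4 kb), measured to the nearer gene end. The other 3 Neurod4 intervals had log2 fold changes between -0.14 and 0.09.

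Single sites of other genes of the pathway passed the threshold. Among the inhibitors of proneural factors (11 Hes, Hey and Id genes), 1 of 67 tested intervals rose and 2 fell, or 4.48%, where 0.469% of all tested intervals rose and 1.26% fell, together 1.73%. The one that rose lies inside Hes3, a Hes gene of neural progenitors (chromosome 4, 152290170 to 152291032). It held 42.0, 41.8 and 44.3 CPM in Nr6a1OE, against 34.4, 35.4 and 34.3 CPM in mScarlet, groups that did not overlap (log2 fold change 0.30, SE 0.07, edgeR adjusted p = 0.0041). This call was lost without Nr6a1OE 3 (edgeR adjusted p = 0.0635). The intervals that fell are nearest to Id4, 154.0 and 101.8 kb from it. At 154.0 kb accessibility was 0.647 ± 0.549 CPM in Nr6a1OE and 1.99 ± 0.177 CPM in mScarlet (SD, n = 3 each), and the log2 fold change was -1.62 (edgeR adjusted p = 0.02). That call was lost on leaving out Nr6a1OE 2, Nr6a1OE 3, mScarlet 1 or mScarlet 3 (highest edgeR adjusted p = 0.183). At 101.8 kb it was 9.93 ± 2.45 CPM in Nr6a1OE and 13.6 ± 1.77 CPM in mScarlet (SD, n = 3 each), and the log2 fold change was -0.43 (edgeR adjusted p = 0.0488), with the call lost on leaving out Nr6a1OE 1, mScarlet 1 or mScarlet 2 (highest 0.508).

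Among 23 target genes of proneural factors and of the neurons they specify, 2 of 211 tested intervals rose and 2 fell. That is 1.90%, near the 1.73% of all tested intervals. An interval 223.3 kb from Sox11, which encodes a SoxC factor of differentiating neurons (chromosome 12, 27565160 to 27566784), fell to 31.3, 31.9 and 26.9 CPM in Nr6a1OE, against 40.7, 41.8 and 42.2 CPM in mScarlet. Its log2 fold change was -0.48 (SE 0.08, edgeR adjusted p = 1.97e-07), and the call held without each library in turn (highest edgeR adjusted p = 0.0013) and in DESeq2 (adjusted p = 0.0051). The other 3 called intervals are nearest to Pax2, a gene of inhibitory interneurons of the Ptf1a lineage. Those 62.6 and 50.2 kb away rose, with log2 fold changes of 0.35 (SE 0.10) and 0.43 (SE 0.12), and the one 29.0 kb away fell, with -0.68 (SE 0.19). Their edgeR adjusted p-values were 0.0364, 0.0305 and 0.029. The call 62.6 kb away held only without Nr6a1OE 1, the one 50.2 kb away only without Nr6a1OE 3, and the one 29.0 kb away was lost without Nr6a1OE 3, mScarlet 1 or mScarlet 3 (highest edgeR adjusted p = 0.196, 0.198 and 0.279 in that order of sites). DESeq2 made none of the 3 Pax2 calls (adjusted p = 0.817, 0.768 and 0.84).

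Of 54 tested intervals at 11 other neurogenic bHLH genes, among them Neurod2, Nhlh1 and Olig2, 0 rose and 1 fell, a weak site 79.2 kb from Olig3 with 1.29 ± 0.731 CPM in Nr6a1OE and 2.97 ± 0.561 CPM in mScarlet (SD, n = 3 each; log2 fold change -1.22, SE 0.33, edgeR adjusted p = 0.0203). This 1 call in 54 is 1.85%, near the share of all tested intervals. It was lost without Nr6a1OE 2, Nr6a1OE 3, mScarlet 2 or mScarlet 3 (highest edgeR adjusted p = 0.185). The 38 intervals of the E protein genes Tcf3, Tcf4 and Tcf12 held no call by edgeR or DESeq2. Before adjustment 0 of them were higher and 3 lower at p under 0.05 in edgeR, or 7.89%, against 5.73% of all tested intervals higher and 6.87% lower. The median log2 fold changes were -0.03 for the E protein genes, -0.02 for the other neurogenic bHLH genes, -0.01 for the inhibitors and 0.01 for the targets, against 0.00 over all tested intervals. DESeq2 called the Sox11 interval and none of the other 7.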

How the data were processed

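Accessibility was measured by ATAC-seq in 3 Nr6a1OE and 3 mScarlet libraries. The authors deposited raw fragment counts for 52223 consensus intervals, made per the file headers with featureCounts 2.0.1, in paired mode, with multiple overlaps allowed and a minimum of 0.2 of each fragment inside the interval. The submitters' processing notes name mm10. Aligner, peak caller, duplicate treatment and any Tn5 shift: not given in the sources used here. Fragments shared by neighbouring intervals were counted in each.

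Counts were filtered with filterByExpr, scaled by TMM and fitted over all 51637 remaining intervals with edgeR 4.0.16 (R 4.3.3, group as the only term). P-values were adjusted by Benjamini-Hochberg with a threshold of 0.05. SE is the size of the fold change over the root of F, and 95% intervals use it. Genes came from RefSeq (GRCm38.p6), with exons and introns not distinguished. Named intervals were, for each gene, the one at its end, the one highest per kb and the one of smallest p, and further ones chosen after their values were seen. Every called interval of the 4 pathway lists was named. The members, lists and motifs were chosen with earlier results of these data known. Of the lists, 1 gene (Tbxt) was matched by its table symbol T. Alternatives included DESeq2 1.42.0. Within groups, chi-square values of library pairs over their degrees of freedom were 1.05 to 1.10, only slightly above counting noise. The common coefficient of variation beyond that noise was 1.47%. Each library was kept as a replicate, but this check cannot tell separate cultures from splits of a single culture.

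The edgeR test was also run on simulated counts with known changes, 50 intervals for each size. It called 18% of changes of 0.3 in log2, 36% of 0.5, 84% of 1.0 and 90% of 1.5. A count of 0 called intervals therefore does not mean that small changes are absent. Proteins of the members were planned for comparison and are not analysed here. A gene planned for the list of other neurogenic bHLH genes is not reported here, and that list was counted without it.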

Additional observations from a re-analysis of the deposited data

How the results depend on the processing

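Over all intervals DESeq2 called 3 higher and 97 lower, against 242 and 652 by edgeR, and the counts without 1 library ran from 98 to 190 higher and from 395 to 544 lower, both lowest without mScarlet 1. They moved by over 1.5 times without Nr6a1OE 2 (higher only), Nr6a1OE 1 (lower only), Nr6a1OE 3, mScarlet 1 or mScarlet 3. At the proneural genes the count of 0 lower held in every alternative run, and the count of 0 higher became 1 with chromosome medians removed (the upstream Ptf1a interval, log2 fold change 0.32, edgeR adjusted p = 0.0492) and ran from 0 to 1 without 1 library, the 1 being without mScarlet 3. With limits of 100 kb, or the gene body and 10 kb, both counts stayed at 0. With the replicate block, edgeR called 224 higher and 617 lower over all intervals and 0 proneural intervals (lowest adjusted p = 0.0563). Same-numbered libraries deviated together with r from -0.03 to 0.03. Deviations within groups were close to counting noise, so these values cannot tell whether the numbers pair the libraries. Of 208 alternative values at 16 named intervals, 198 kept direction and side of the threshold, and 22 of the 32 intervals kept their direction in all 13 refits. The other 10 all had estimates between -0.06 and 0.09, and their direction turned only on leaving out 1 library, to values between -0.10 and 0.17. Leaving out 1 library moved 23 of the 32 estimates by over 1.5 times. The turned ones among the 16 lay at Neurog1 30.3 kb downstream (-0.019 to 0.042), the Neurog1 start site (-0.061 to 0.065) and the Neurod1 start site (-0.12 to 0.0084). Of the 32 intervals, 16 held under 100 fragments in some library, and a small change there may not be detectable at this depth.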
